A study of Rattus norvegicus with 12 samples.

Results

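The genes described here are 5 components of the brain angiotensin system: Agt, Agtr1a, Agtr1b, Agtr2 and Ace. They were found by their gene names on the Agilent rat arrays of the series, where they are represented by 8 probes of 41012 and 53 spots of 43379 per array, among 35608 genes. RNA came from the striatum of 12 male rats, 1 array per rat, in 4 groups of 3. Every rat carried a unilateral lesion made by injecting 9 µg of 6-hydroxydopamine (6-OHDA), a toxin of dopamine neurons, into the left substantia nigra pars compacta (SNc). The 6-OHDA group received nothing further. The DOPA group received L-DOPA (25 mg/kg) with benserazide (12.5 mg/kg), which blocks the conversion of L-DOPA outside the brain, in 2 injections per day at an interval of 12 h for 19 days. The HFS group received high frequency stimulation of the subthalamic nucleus (STN) for 5 days (130 Hz, pulses of 80 µs, 60 µA) through an electrode on the side of the lesion. The DOPA/HFS group received both treatments. No unlesioned rat was among these arrays, so the lesion itself was not compared, and the electrode and the current it carried cannot be told apart. The age and strain of the rats are not given in the sources used here.

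Angiotensinogen, the product of Agt, is the precursor from which angiotensin I is released. Angiotensin converting enzyme, the product of Ace, trims angiotensin I to angiotensin II, which acts on the type 1 receptors (encoded in rats by the paralogs Agtr1a and Agtr1b) and on the type 2 receptor (Agtr2). In the brain angiotensinogen is made mainly by astrocytes, Ace is known as a marker of the striatonigral pathway and of vessels and choroid plexus, and type 1 receptors are known to interact with dopamine transmission in the basal ganglia.

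The members were chosen with earlier results of these data known. Agt was known to differ between HFS and 6-OHDA and Agtr1a between DOPA and 6-OHDA, so their values in those comparisons, and in every other comparison that reuses the same arrays, are given as a description with no test. Agt was tested in DOPA/HFS against DOPA and Agtr1a in DOPA/HFS against HFS, whose arrays had not entered their choice. Ace was tested in the 3 comparisons that involve DOPA/HFS. Signals are background-corrected spot brightness on the log2 scale, quantile normalised between arrays, and differences are log2 differences, first group minus second. The fit (limma, all 12 arrays) covered 20462 genes, and those with a p adjusted by Benjamini-Hochberg below 0.1 and a fold above 1.2 or below 0.8 were called. Since tissue was measured in bulk, a lower signal can come from fewer cells of a type or from less RNA per cell, and these cannot be told apart.

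Agt, Agtr1a and Ace passed the filter on dim probes, and Agtr1b and Agtr2 did not. The share of spots well above background was 50.5% to 63.2% per array. DOPA/HFS replicate 3 stood apart by its 4175 outlier spots, against 2 to 25 on the other arrays, so the fitted differences of Agt, Agtr1a and Lnpep with DOPA/HFS are also given without it, and the fit of Ace leaves it out. The striatal projection neuron list was present in every group (10 of 10 markers passed the filter). Summed signals of a list cover only the markers with a value on every array, here 9. The summed linear signal was 216000 to 285000 in 6-OHDA, 234000 to 273000 in HFS, 228000 to 258000 in DOPA and 219000 to 248000 in DOPA/HFS. The replicate number of an array is also the number of its slide, and each slide held 1 array of each group, so differences within slides are given beside the differences between group means. Each group kept the same position on its slide, so position and group cannot be told apart.

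Agt was represented by 1 probe with 10 spots, all 120 of which were well above background over the 12 arrays. In 6-OHDA rats the log2 signal of Agt was 12.04, 12.29 and 12.34. In HFS rats it was 12.62, 12.62 and 12.54. The 3 HFS values lay above the 3 values of 6-OHDA. In DOPA rats the Agt signal was 12.66, 12.28 and 12.32, so that 1 rat lay just above the HFS values and the others within the range of 6-OHDA. In DOPA/HFS rats it was 11.88, 12.44 and 12.73, which holds both the lowest and the highest value of Agt in the series. The highest value depended on the processing. In the authors' log2 table DOPA/HFS replicate 3 was at 12.51, below the HFS rats (12.56 to 12.65) and DOPA replicate 1 (12.68). With outlier spots kept, the highest DOPA/HFS value was 12.53, below the HFS values of 12.56 to 12.64. The spread between the spots of 1 array was far smaller than that between rats: the SD over the 10 spots was 0.03 to 0.08, and the SD between the 12 arrays was 0.26.

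By group, Agt averaged 12.59 ± 0.04 (SD, n = 3) in HFS, 12.42 ± 0.20 in DOPA, 12.35 ± 0.43 in DOPA/HFS and 12.22 ± 0.16 in 6-OHDA. In this order each group overlapped with its neighbours, and the pair at the ends, HFS and 6-OHDA, was separated. Agt was higher in HFS than in 6-OHDA by 0.37 on the log2 scale, a fold of 1.29, and the difference within slides was 0.58, 0.33 and 0.20. This is the comparison on which Agt was chosen, so the separation is a description and no independent result. Of the 3 members that passed the filter, Agt was the 1 whose groups did not overlap here, while 2.79% of all genes had HFS values wholly above those of 6-OHDA and 2.33% had them wholly below. No gene on the array was called in this comparison (0%), with 479 genes (2.34%) at an unadjusted p under 0.05. The HFS and 6-OHDA values of Agt stayed apart under each of the 4 alternatives that changed them: 75th percentile scaling, normexp background correction, the authors' log2 table and outlier spots kept. These alternatives reuse the arrays on which Agt was chosen, so they show only how far the separation depends on processing.

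**Figure D1:**
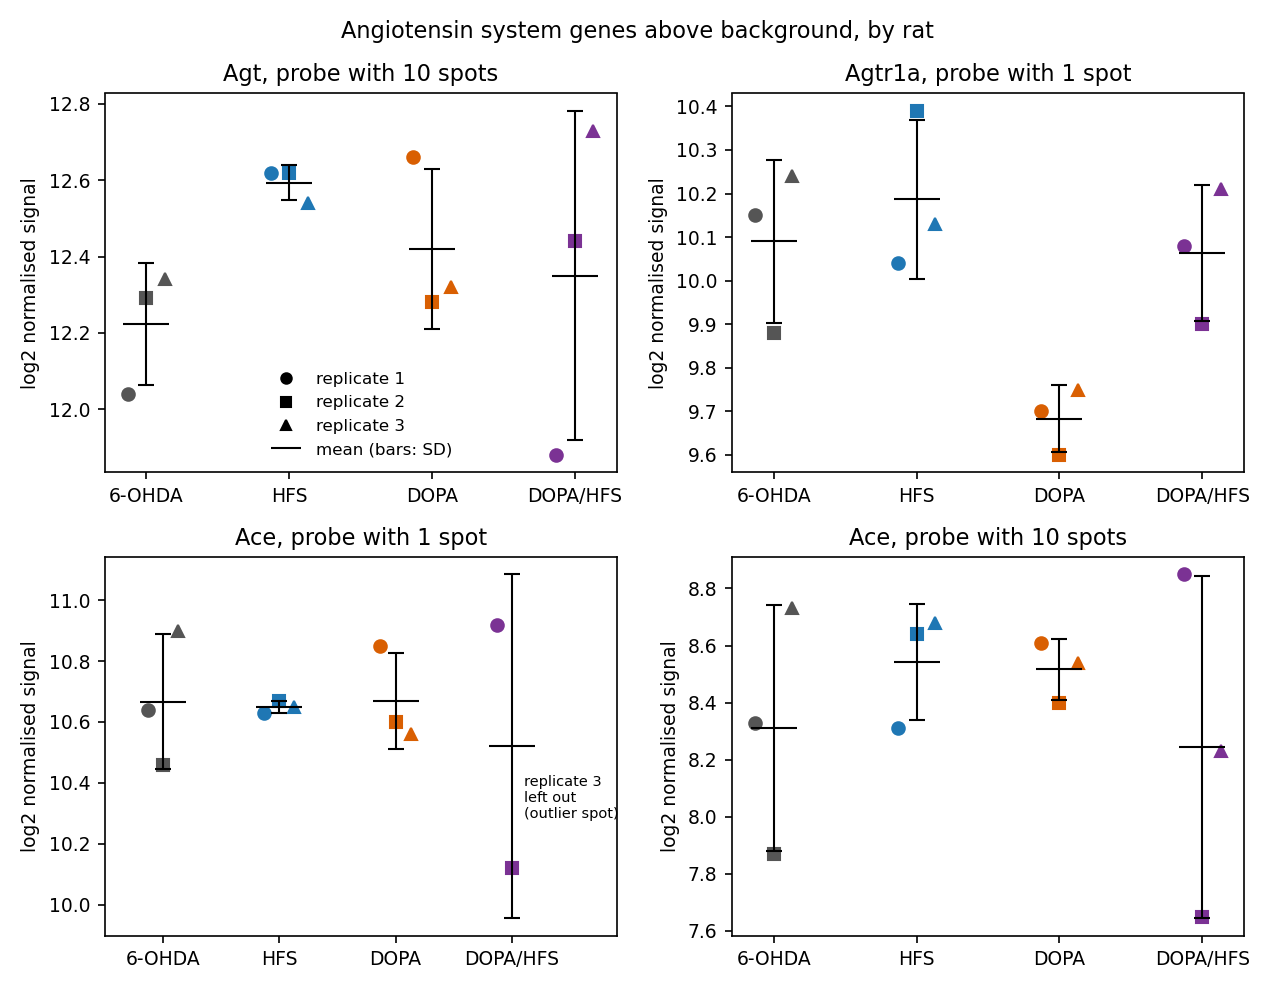
Log2 normalised signal (y axis) of Agt, Agtr1a and both probes of Ace in each rat, by group (x axis); symbols mark the replicate, which is also the slide, and lines with bars give the mean and SD. Agt in HFS (12.54 to 12.62) lies above 6-OHDA (12.04 to 12.34), Agtr1a in DOPA (9.60 to 9.75) lies below every other group, and the groups overlap for Ace.

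When stimulation was added to L-DOPA, the direction of Agt differed between rats. DOPA/HFS minus DOPA was −0.07 ± 0.21 (SE of the fit, n = 3 per group), with a 95% confidence interval of −0.52 to 0.39 and an adjusted p of 1 (limma). With only the 6 values themselves, an exact two-sided permutation test gave p = 1, where the smallest p this design allows is 0.1. Within slides the difference was −0.77, 0.16 and 0.41, the last with the DOPA/HFS replicate 3 value that depended on processing. The difference between means was −0.12 in the authors' log2 table and −0.14 with outlier spots kept. It was −0.26 without DOPA/HFS replicate 3, and it turned to 0.17 without DOPA/HFS replicate 1 and to 0.05 without DOPA replicate 1. With the slide as a block the difference was −0.07 (95% interval −0.55 to 0.41, adjusted p = 0.998). The interval includes the size of the difference seen with stimulation alone, so these arrays do not show whether stimulation acts on Agt alike in both settings. In DOPA rats Agt was higher than in 6-OHDA by 0.20, with 0.62, −0.01 and −0.02 within slides, so that the mean rests on DOPA replicate 1. DOPA/HFS minus 6-OHDA was 0.13 with overlapping values, and it ran from −0.06 (without DOPA/HFS replicate 3) to 0.36 (without DOPA/HFS replicate 1) when 1 array was left out. DOPA/HFS minus HFS was −0.24, and it ran from −0.43 (without DOPA/HFS replicate 3) to −0.01 (without DOPA/HFS replicate 1). The DOPA/HFS and HFS values of Agt overlapped, but not in the authors' log2 table (−0.30) or with outlier spots kept (−0.31), where DOPA/HFS lay below.

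Markers of other cells moved with the HFS group beside Agt. Of 14 choroid plexus markers, 10 passed the filter, and their median HFS minus 6-OHDA difference was 2.05, against 0.01 over all genes. Their defining marker, Ttr (transthyretin), had log2 signals of 6.23, 6.59 and 5.80 in 6-OHDA, 16.30, 11.86 and 15.28 in HFS, 2.41, 10.29 and 13.81 in DOPA, and 8.28, 9.25 and 2.79 in DOPA/HFS. The markers Kl, Kcne2, Prlr and Cldn2 were not above background. The summed linear signal of 8 of the markers was 3340 to 6310 in 6-OHDA, 9960 to 95100 in HFS, 3630 to 20400 in DOPA and 4220 to 5660 in DOPA/HFS. Folr1 and Slc4a5 had no value on DOPA/HFS replicate 3 and were not summed. The brightest summed marker was Enpp2, named after its values were seen, in every 6-OHDA rat (11.49 to 12.51) and every DOPA/HFS rat. In HFS replicates 1 and 3 it was Ttr, so the sum mostly follows these genes. Every HFS rat lay above every 6-OHDA rat for both Ttr and Agt. Over all rats the 2 signals did not keep the same order. HFS replicate 2, the lowest of its group for Ttr at 11.86, had an Agt signal of 12.62. DOPA replicate 1, with a Ttr signal of 2.41, had an Agt signal of 12.66. Of the leptomeningeal markers, 9 of 10 were above background, with a median difference of 0.23. The 8 with a value on every array summed to 5990 to 7700 in 6-OHDA and 7900 to 14300 in HFS. That sum was mostly Igf2, named after its values were seen: without it the sum was 1990 to 2890 in 6-OHDA and 2320 to 3200 in HFS. Of the 9 leptomeningeal markers tested, 6 were higher in HFS. Igfbp2, Ogn, Dcn and Slc6a13 differed by 1.82, 0.54, 0.23 and 0.02, and the collagen genes Col1a1, Col1a2 and Col3a1 by −0.43, −0.12 and −0.64. Astrocyte markers, of which 11 of 12 passed the filter, had a median HFS minus 6-OHDA difference of 0.14, and none was called. The summed signal of 10 of them was 76900 to 90200 in 6-OHDA and 84000 to 95100 in HFS. The part of these markers in the Agt values was not tested.

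**Figure D2:**
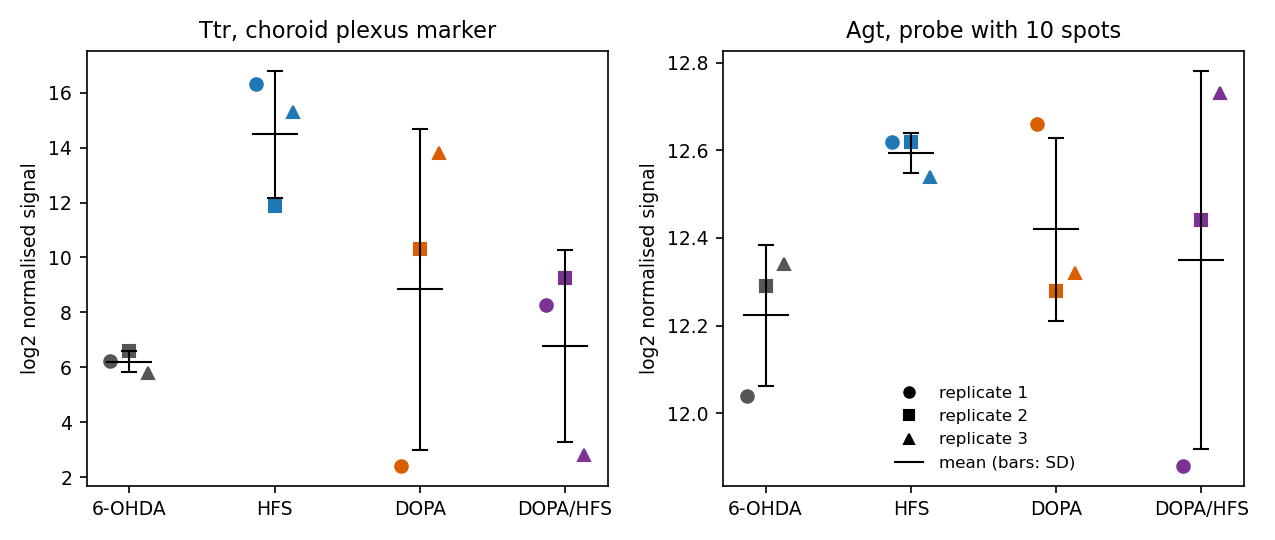
Log2 normalised signal (y axes, on different scales) of the choroid plexus marker Ttr and of Agt in each rat, by group (x axis); symbols mark the replicate and lines with bars give the mean and SD. Ttr spans 2.41 to 16.30 and Agt 11.88 to 12.73, and DOPA replicate 1 is the lowest rat for Ttr while its Agt signal is 12.66.

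Agtr1a was represented by 2 probes, of which the brighter, with 1 spot, was well above background on all 12 arrays and stands for the gene. Its log2 signal was 10.15, 9.88 and 10.24 in 6-OHDA rats. In DOPA rats it was 9.70, 9.60 and 9.75. The DOPA values were the lowest of the series in all 3 rats and did not overlap with any other group. In HFS rats the Agtr1a signal was 10.04, 10.39 and 10.13, and in DOPA/HFS rats 10.08, 9.90 and 10.21. These 2 groups and 6-OHDA overlapped, and HFS replicate 2 lay above the rats of both other groups.

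The group means of Agtr1a were 10.19 ± 0.18 (SD, n = 3) in HFS, 10.09 ± 0.19 in 6-OHDA, 10.06 ± 0.15 in DOPA/HFS and 9.68 ± 0.08 in DOPA. The upper 3 groups in this order overlapped with their neighbours. DOPA minus 6-OHDA was −0.40, a fold of 0.756, and −0.44, −0.28 and −0.49 within slides. Agtr1a was chosen on this comparison, so its separation here is a description and no independent result. It was the 1 member of the 3 whose groups did not overlap, while 3.11% of all genes had DOPA values wholly below those of 6-OHDA. The DOPA and 6-OHDA values stayed apart under each of the same 4 alternatives, which reuse the arrays of that choice. Over all genes 1 was called (0.00489%), Igsf5, which is no member, and 530 (2.59%) had an unadjusted p under 0.05. Of the marker lists, ependyma and endothelium were singled out after their values were seen. Ependyma (5 of 7 markers on the array and above background) had a median of −0.42 in DOPA against 6-OHDA, with 0 of 5 higher. In DOPA/HFS against DOPA its median was 0.50, with 4 of 5 higher, and none was called. Its summed linear signal, of 4 markers, was 2190 to 9060 in 6-OHDA, 2740 to 3790 in DOPA and 3680 to 6230 in DOPA/HFS. Endothelium had a median of 0.21 in DOPA against 6-OHDA, with 9 of 11 higher. In DOPA/HFS against DOPA its median was −0.09, with 4 of 11 higher, and none was called. Its summed signal, of 8 markers, was 8000 to 8450 in 6-OHDA, 9360 to 10800 in DOPA and 7820 to 8590 in DOPA/HFS. Cldn5, named after its values were seen, was the brightest of the 8, at 12.76 to 12.78 in 6-OHDA and 12.94 to 13.20 in DOPA. Kdr, Vwf and Slco1a4 were not summed because they had no value on DOPA/HFS replicate 3. For each of them the DOPA and 6-OHDA values overlapped (Kdr 11.99 to 12.47 and 11.90 to 12.54), so the separation of the sum does not cover the whole list. The part of these markers in the Agtr1a values was not tested.

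With stimulation added to L-DOPA, the Agtr1a values overlapped with those of 6-OHDA. DOPA/HFS minus DOPA was 0.38, a fold of 1.30, and 0.38, 0.30 and 0.46 within slides, and the groups did not overlap, as for 3.76% of genes in that direction. The low DOPA values on which Agtr1a was chosen enter this difference too, so it is a description and no independent comparison. No gene was called in DOPA/HFS against DOPA (0%), with 775 (3.79%) at an unadjusted p under 0.05. In the table of log2 values that the authors normalised, DOPA/HFS minus DOPA was 0.17 and the groups overlapped, with Agtr1a at 9.86 in DOPA/HFS replicate 3 against 9.75 to 9.93 in DOPA. They stayed apart under the other 3 of the 4 alternatives. The difference was 0.23 with outlier spots kept and 0.31 without DOPA/HFS replicate 3. DOPA/HFS minus 6-OHDA was −0.02, with −0.20 in the authors' normalised table, −0.17 with outlier spots kept and −0.10 without DOPA/HFS replicate 3.

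L-DOPA in stimulated rats was the comparison of Agtr1a whose arrays had not been used to choose it. DOPA/HFS minus HFS was −0.12 ± 0.15 (SE of the fit, n = 3 per group), with a 95% interval of −0.46 to 0.21 and an adjusted p of 1 (limma). The exact two-sided permutation test on the 6 values gave p = 0.5, with 0.1 the smallest possible. The values within slides were 0.04, −0.48 and 0.08, so the mean rests on slide 2, where the HFS rat had the highest Agtr1a signal of the series. The difference was −0.25 in the authors' log2 table, −0.27 with outlier spots kept, −0.19 without DOPA/HFS replicate 3 or without HFS replicate 1, −0.04 without DOPA/HFS replicate 2 and −0.02 without HFS replicate 2, and it was not called under any. With the slide as a block the interval was −0.47 to 0.23 (adjusted p = 1). The interval includes both no difference and the difference seen in unstimulated rats. No gene was called in this comparison (0%), and 498 (2.43%) had an unadjusted p under 0.05.

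**Figure D3:**
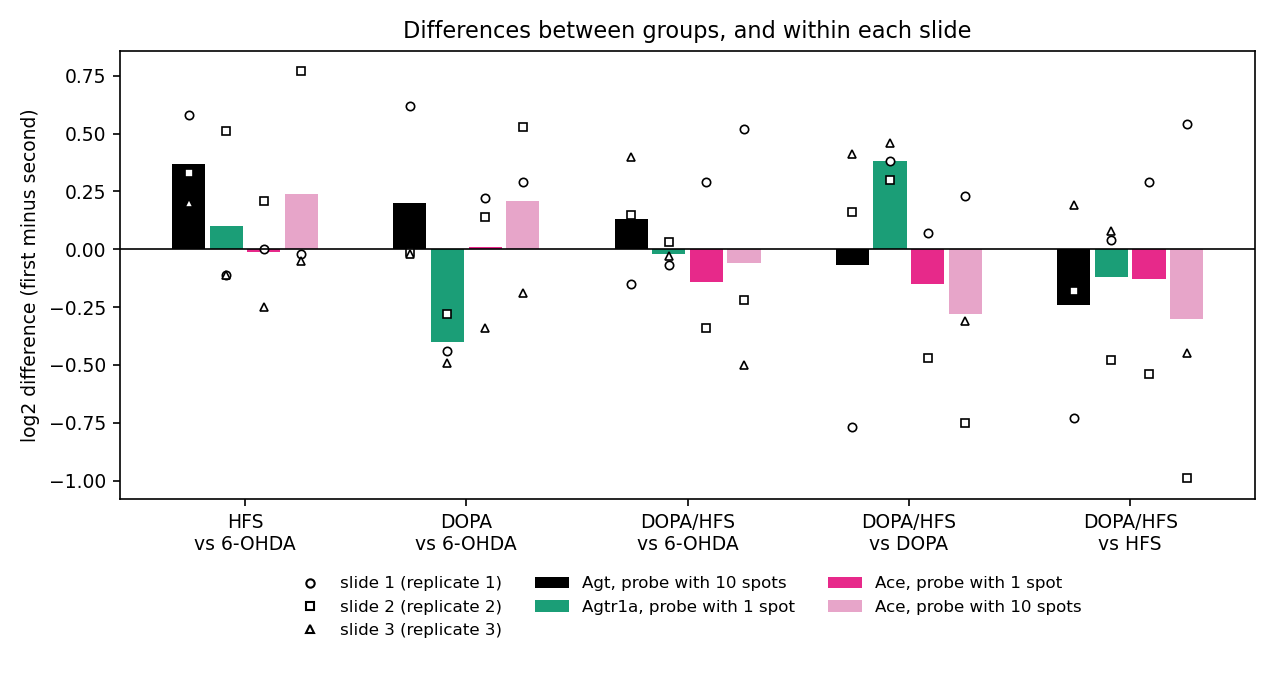
Log2 differences between group means (bars, y axis) in the 5 comparisons (x axis) for Agt, Agtr1a and both probes of Ace, with the difference within each slide as symbols. The 3 slides share a sign for Agt in HFS against 6-OHDA (0.20 to 0.58), for Agtr1a in DOPA against 6-OHDA (−0.49 to −0.28) and for Agtr1a in DOPA/HFS against DOPA (0.30 to 0.46).

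The other probe of Agtr1a, with 10 spots, gave almost no signal. Without outlier spots, 5 of its 113 spots (4.42%) were well above background over the 12 arrays, and its array values lay between 2.60 and 4.12. No spot of it was above background in 6-OHDA rats, 1 was in HFS and 1 in DOPA, and 3 of 10 were in DOPA/HFS replicate 2. On DOPA/HFS replicate 3, 7 of its 10 spots were outlier spots. The 2 probes of Agtr1a therefore disagreed on whether the transcript was detected, and the values above rest on 1 spot per array. Whether the brighter probe also binds the transcript of the paralog Agtr1b was not tested.

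The other receptor genes were not above background in any group. For Agtr1b, 2 of 120 spots (1.67%) were well above background, 1 in DOPA replicate 1 and 1 in DOPA/HFS replicate 2, and the array values were 2.63 to 3.15. Agtr2 had 2 probes. The one with 1 spot was well above background on 0 of 12 arrays. The one with 10 spots had 3 of 118 spots (2.54%) well above background, 1 of them in a 6-OHDA rat, and array values of 2.61 to 3.18. At this brightness no fold is given for Agtr1b or Agtr2, and a difference between groups was not detectable.

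**Figure D4:**
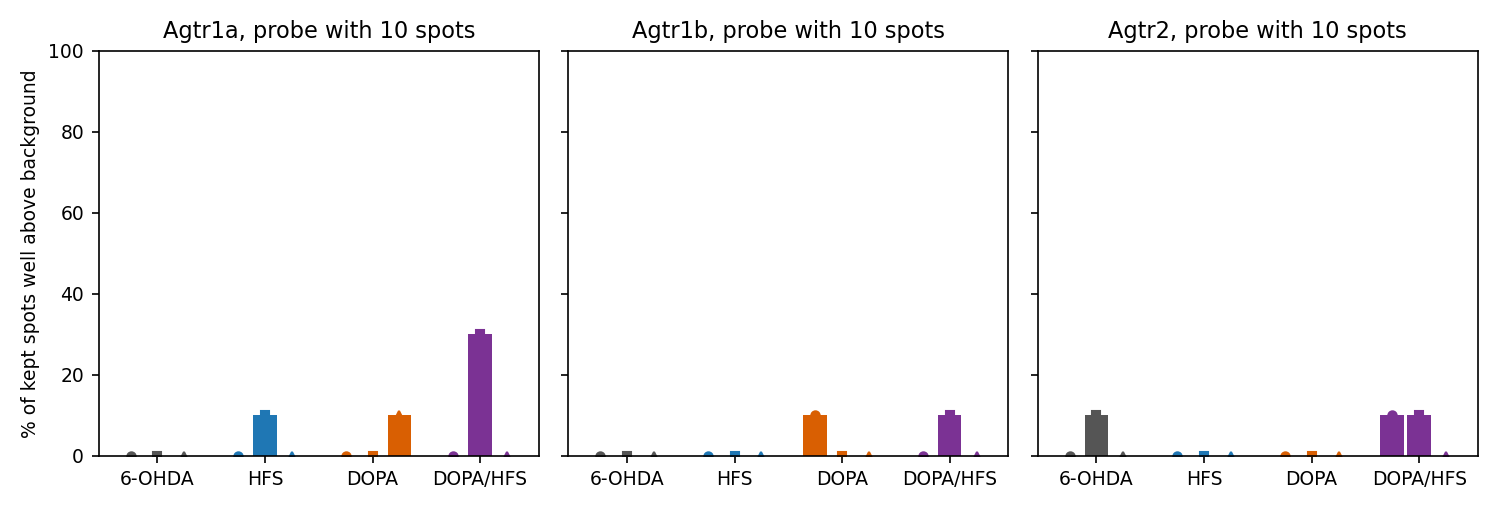
Share of spots well above background (y axis, percent of the spots left after outlier spots were removed) on each array, by group (x axis), for the probes of Agtr1a, Agtr1b and Agtr2 with 10 spots; each bar is 1 array, with the replicate symbol on it. The highest bar is 3 of 10 spots for Agtr1a in DOPA/HFS replicate 2, and most arrays are at 0.

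Ace was represented by 2 probes, both well above background on all 12 arrays. The brighter, with 1 spot, gave log2 signals of 10.64, 10.46 and 10.90 in 6-OHDA, 10.63, 10.67 and 10.65 in HFS, and 10.85, 10.60 and 10.56 in DOPA. In DOPA/HFS it gave 10.92 and 10.12, and the spot on replicate 3 was an outlier and was left out of the fit. The groups overlapped throughout. Ace was thus measured by this probe in 2 DOPA/HFS rats.

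The group means of the brighter Ace probe were 10.67 ± 0.22 (SD, n = 3) in 6-OHDA, 10.67 ± 0.16 in DOPA, 10.65 ± 0.02 in HFS and 10.52 ± 0.57 (n = 2) in DOPA/HFS. HFS minus 6-OHDA was −0.01 and DOPA minus 6-OHDA was 0.01, both given without a test. DOPA/HFS minus 6-OHDA was −0.14 ± 0.23 (SE of the fit, 95% interval −0.66 to 0.38). DOPA/HFS minus DOPA was −0.15 (95% interval −0.67 to 0.38) and DOPA/HFS minus HFS was −0.13 (−0.65 to 0.40), and each of the 3 had an adjusted p of 1 (limma). The intervals allow a fold past the limits of the call in either direction, so Ace is not shown to be alike in the groups. No gene was called in DOPA/HFS against 6-OHDA (0%), with 565 (2.76%) at an unadjusted p under 0.05. Without DOPA/HFS replicate 2 these differences turned to 0.26, 0.25 and 0.27, and with the outlier spot of replicate 3 kept, which read 12.97, they became 0.67, 0.66 and 0.68.

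The Ace probe with 10 spots was measured on every array. It gave 8.33, 7.87 and 8.73 in 6-OHDA, 8.31, 8.64 and 8.68 in HFS, 8.61, 8.40 and 8.54 in DOPA, and 8.85, 7.65 and 8.23 in DOPA/HFS. The DOPA/HFS rats held both the highest and the lowest value. Its SD over the 10 spots of an array was 0.04 to 0.10, against 0.36 between arrays. By this probe, with all 3 DOPA/HFS rats, DOPA/HFS differed by −0.06 from 6-OHDA, −0.28 from DOPA and −0.30 from HFS. The 2 probes shared the sign of these 3 differences, and rat by rat both were highest in DOPA/HFS replicate 1 and lowest in DOPA/HFS replicate 2. Within slides the 10-spot probe gave differences of both signs in each of the 5 comparisons.

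The signal of Agt over the 12 arrays was most like that of BF560751 (Pearson r = 0.887, Spearman rho = 0.867), Hsd17b1 (r = 0.852, rho = 0.762) and RGD1562476 (r = 0.844, rho = 0.790) among 18350 genes measured on each array. For Agtr1a the nearest 3 included Mief1 (r = 0.922, rho = 0.937) and Traf4 (r = 0.876, rho = 0.867). For Ace, over 11 arrays, they were Ece2 (r = 0.930, rho = 0.891), RGD1559988 (r = 0.913, rho = 0.827) and RGD1565135 (r = 0.911, rho = 0.973). These are descriptions: the arrays share groups and slides, and the nearest of so many genes are close by selection.

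The other genes of the pathway comprised 21 genes, all on the array, and 17 of them passed the filter. Among the others, Cma1, Ctsg and Kng1, which encode mast cell chymase, cathepsin G and kininogen, were not above background. None of the 17 was called in any of the 5 comparisons. The median difference of the 17 was −0.01 in HFS against 6-OHDA, −0.02 in DOPA against 6-OHDA, −0.06 in DOPA/HFS against 6-OHDA, 0.00 in DOPA/HFS against DOPA and 0.02 in DOPA/HFS against HFS, against medians over all genes of −0.02 to 0.01. In each comparison 1 of the 17 had an unadjusted p under 0.05.

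Atp6ap2, which encodes a part of the vacuolar proton pump, differed by 0.10 to 0.28, with the largest value in DOPA/HFS against 6-OHDA (SE 0.19, adjusted p = 1 by limma). Among the peptidases that make or break angiotensins, the first in order of mean signal were Anpep (aminopeptidase N), which ranged from −0.28 to 0.07, Thop1 (thimet oligopeptidase), from −0.19 to 0.01, Prep (prolyl oligopeptidase), from −0.29 to 0.16, Dpp3 (dipeptidyl peptidase 3), from 0.00 to 0.18, and Mme (neprilysin), from −0.18 to 0.10. Anpep and Thop1 had no value on DOPA/HFS replicate 3, so their differences with DOPA/HFS rest on the other rats of that group. None of these differences passed the test. Anpep is also 1 of the pericyte markers.

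Mas1, the receptor of angiotensin 1-7, was named because the study lists it in DOPA against 6-OHDA, so its values are a description. It gave 7.31, 5.78 and 6.48 in 6-OHDA, 6.18, 6.76 and 7.01 in HFS, 7.46, 7.90 and 8.04 in DOPA, and 6.03, 7.56 and 7.76 in DOPA/HFS. The DOPA values lay above those of 6-OHDA and HFS, and DOPA/HFS replicate 1 lay apart from the other DOPA/HFS rats. DOPA minus 6-OHDA was 1.27, and 0.14, 2.12 and 1.56 within slides, and 3.15% of all genes had DOPA values wholly above those of 6-OHDA.

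Lnpep, an aminopeptidase also known as the angiotensin IV receptor, was singled out after its values were seen. Its log2 signal was 5.44, 5.44 and 5.65 in 6-OHDA, 5.40, 5.60 and 5.08 in HFS, 5.97, 5.27 and 5.63 in DOPA, and 5.03, 4.60 and 4.66 in DOPA/HFS. The DOPA/HFS values were the 3 lowest of the series. Lnpep had 2 probes, of which 1 passed the filter on dim probes and gave these values. That probe was well above background on 10 of 12 arrays. DOPA/HFS differed by −0.75 from 6-OHDA, −0.86 from DOPA and −0.60 from HFS (SE 0.21 each), with the same sign in every slide and an adjusted p of 1 in each (limma), so it was not called. Without DOPA/HFS replicate 3 the differences were −0.70, −0.81 and −0.55. The share of all genes with DOPA/HFS values wholly below was 2.44% against 6-OHDA, 5.66% against DOPA and 4.13% against HFS, and the share wholly above was 1.74%, 3.76% and 2.24%.

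**Figure D5:**
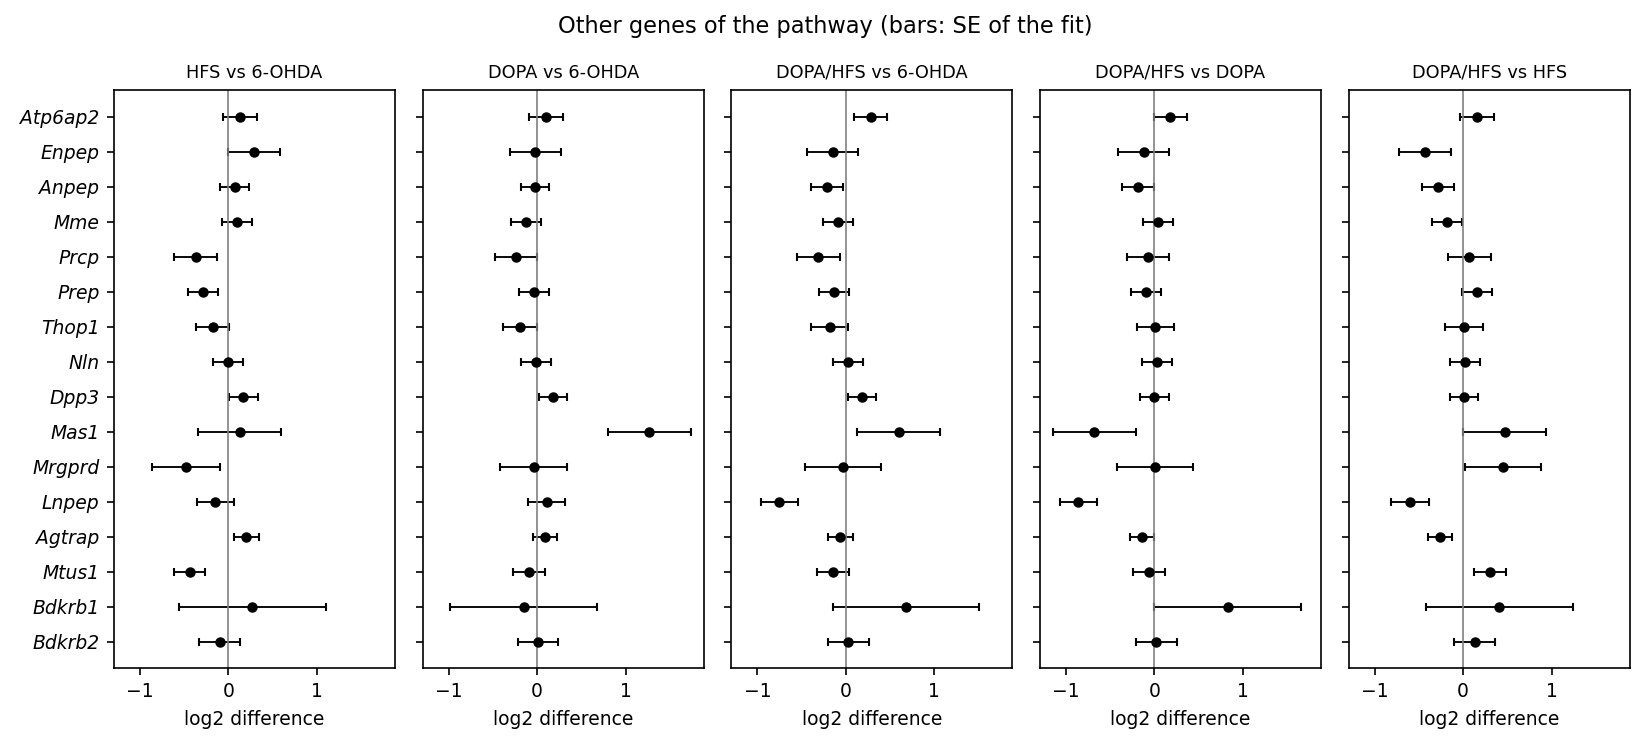
Log2 difference (x axis) of 16 of the 17 other pathway genes above background (y axis) in the 5 comparisons, 1 panel each; points are the fitted differences and bars their SE. Mas1 in DOPA against 6-OHDA (1.27) and Lnpep in the 3 comparisons with DOPA/HFS (−0.86 to −0.60) lie farthest from 0 relative to their SE, and none was called. Anpep, Thop1 and Mrgprd have no value on DOPA/HFS replicate 3.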

How the data were processed

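Intensity values were taken from the scanner files the authors deposited, in which Agilent Feature Extraction (version 9.1, per the submitters' processing notes) had quantified every spot and subtracted background; arrays had 1 colour (Cy3). The authors also deposited a table of log2 values, quantile normalised between arrays, which served as an alternative; its scale was checked against the scanner values. Here, outlier spots were left out of the processed signal of non-control spots, log2 values were quantile normalised (limma 3.58.1, R 4.3.3), spots were averaged per probe, and probes well above background on at least 0.4 of the 12 arrays were kept, a probe counting as such on an array where at least 0.5 of its spots were. Quantile normalisation gives every array the same distribution and so removes a shift common to most genes. Genes were named through RefSeq accessions (GRCr8 table, 10735 of 41012 probes) or else by the file's name, and the brightest probe stood for a gene. The study's methods used SAM and a Wilcoxon test; limma (lmFit, eBayes) on all 12 arrays took the place of SAM with the same fold limits.

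Members and gene lists were chosen with earlier results of these data known. The text names the 5 members, at most 6 other pathway genes by brightness, Mas1, the 3 genes nearest each member by correlation, and the defining marker of a list; some genes that this rule or the lists hold are not reported here. The lists of endothelium, pericytes and smooth muscle, microglia and ependyma had median HFS minus 6-OHDA differences of −0.04, −0.04, −0.07 and 0.51, and none of their genes was called. Replicates are separate rats. Same-numbered arrays share a slide, and correlations of their deviations from group means ran from −0.287 to 0.476. On slide 2 all were positive (0.0675 to 0.425). For 4 arrays of slide 2 the closest array of another group was on the same slide, against 0 on slide 1 and 1 on slide 3. The slide was a block in an alternative only. The fit was tested on simulated data. The number of arrays limits the precision. Alternatives were 75th percentile scaling, normexp background correction with an offset of 50, other filters and probe rules, outlier spots kept, other thresholds, only the arrays compared, and leaving out each array.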

Additional observations from a re-analysis of the deposited data

Results flagged for a closer look

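The Agtr1a probe with 10 spots, which stands for no gene in the fit, had 3 of 10 spots well above background on DOPA/HFS replicate 2, while no spot of it was above background in the 3 6-OHDA rats; its log2 signal there was 4.12, against 2.60 to 3.03 in 6-OHDA. Agtrap, which encodes a protein that binds the type 1 receptor, was on average 0.09 higher in DOPA than in 6-OHDA, and −0.26 in DOPA/HFS relative to HFS: every DOPA rat lay above the 6-OHDA mean and every DOPA/HFS rat below the HFS mean. For Mtus1, which encodes a protein that binds the type 2 receptor, the same 2 differences were −0.09 and 0.30, each rat lying on its side. Both genes were singled out by this pattern, which sets rats against a group mean. For each gene the values of the compared groups overlapped in both comparisons. Tested as an interaction over all genes, neither difference between the effects was called (limma, adjusted p = 1 for both).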

How the results depend on the processing

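Agt in HFS against 6-OHDA (0.28 to 0.43 over the arrays left out) and Agtr1a in DOPA against 6-OHDA (−0.51 to −0.33) kept their direction under every alternative run, and no member and no other pathway gene was called under any. The ranges over the arrays left out were −0.26 to 0.17 for Agt in DOPA/HFS against DOPA, turning to 0.17 without DOPA/HFS replicate 1 and to 0.05 without DOPA replicate 1. For Ace they were −0.54 to 0.26 against 6-OHDA, −0.55 to 0.25 against DOPA and −0.53 to 0.27 against HFS, turning positive without DOPA/HFS replicate 2. With outlier spots kept, Ace in DOPA/HFS reversed to 0.67, 0.66 and 0.68, because the spot on replicate 3 then entered. In the authors' log2 table, Agtr1a gave −0.20 in DOPA/HFS against 6-OHDA and 0.17 against DOPA. With outlier spots kept these differences were −0.17 and 0.23, so the shift was not particular to the authors' table. The cause was not tested.

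The counts of genes called over the whole array were 0 in each comparison but DOPA against 6-OHDA (1). With no filter on dim probes they were 3 in HFS against 6-OHDA, 0 in DOPA against 6-OHDA and 3 in DOPA/HFS against HFS. With the filter on all 3 arrays of a group they were 1 in HFS against 6-OHDA and 1 in DOPA/HFS against HFS. In DOPA against 6-OHDA the count was 0 with the slide as a replicate block, 2 with only the arrays compared and 0 at an adjusted p under 0.05; the block changed no other call. Leaving out 1 array gave 0 to 2 in HFS against 6-OHDA, 0 to 13 in DOPA against 6-OHDA (13 without DOPA/HFS replicate 1), 0 to 3 in DOPA/HFS against 6-OHDA and 0 to 4 in DOPA/HFS against HFS, both highest without DOPA/HFS replicate 1. Dim signal limits Agtr1b and Agtr2, which were near background on every array. Ace was also fitted with its 10-spot probe, chosen after seeing the data.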
